A study of Mus musculus with 9 samples.

Results

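The genes described here are Cd3d, Cd3e, Cd3g, Cd79a, Cd79b, Coro1a, Thy1, Ptprc, Cd52 and Lck, a set of 10 genes read in blood and lymphoid tissue as signs of lymphocytes. Every probe annotated with 1 of these symbols was taken, which gave 18 of the 45281 probes of the array, for 8 of its 19057 named genes. Coro1a and Ptprc had 4 probes each, Cd3e, Cd79b, Thy1 and Cd52 had 2, and Cd3d and Cd3g had 1. Cd79a and Lck were not analysed here, since the probe annotation used here pairs no probe with either. Of the 18 probes 13, from 7 genes, were above background on at least 2 of the 6 arrays and were tested; all 4 Ptprc probes and the second Thy1 probe were not.

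Total RNA of mouse ovaries was hybridized to Illumina expression BeadChips in 3 groups of strain C57BL/6. WT ovaries came from wild-type controls, POF ovaries from a model of premature ovarian failure, and SSCTR ovaries from recipients of transplanted spermatogonial stem cells, the germline stem cells of the testis. The labels do not give the age of the mice, how failure was induced, when ovaries were taken, whether the recipients had failing ovaries before the transplant, or whether a sample is 1 animal or a pool. Each group had 2 measured arrays, replicates 2 and 3, because the deposited replicate 1 is computed from those 2; the p-values therefore measure only the spread between these arrays, which may be technical.

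T cells read antigen through a receptor whose signal is carried by the CD3 chains delta, epsilon and gamma; the kinase Lck phosphorylates their tails, and the phosphatase CD45, the product of Ptprc, keeps Lck ready. B cells use the membrane antibody with the CD79a and CD79b chains in the same way. The ovary holds small numbers of lymphocytes beside many macrophages, and lymphocytes and macrophages enter it around ovulation and when the corpus luteum regresses. Not all genes of the set are restricted to lymphocytes: Coro1a, an actin regulator, is shared by leukocytes, Cd52, a short glycoprotein anchored in the membrane, is also made by macrophages and by epithelium of the male reproductive tract, and Thy1, another membrane-anchored glycoprotein, is carried by fibroblasts and neurons as well as by mouse T cells.

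Between 16040 and 18041 probes were above background (detection p under 0.05) on an array. SSCTR had fewer of them (16546 and 16040) than WT (17752 and 18019) and POF (17855 and 18041); the part of this difference in the results below was not tested. Arrays of a group correlated at 0.988 to 0.989 across tested features, which are not independent replicates. Of 12 ovary markers 10 had a probe, and 9 of these were measured, among them the oocyte factor Gdf9 and the granulosa receptor Fshr, whereas Amh was above background on none of the 6 arrays. With 2 arrays a group, precision is limited throughout.

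Cd3d and Cd3g lie beside each other on mouse chromosome 9 and are read in opposite directions, with 1355 bases between their starts, and Cd3e starts 27825 bases from Cd3d. Their promoters are shown because Cd3d and Cd3g moved together in the comparison of SSCTR with POF. The windows run from 250 bases before to 50 after each start in RefSeq's annotation of GRCm38.p6: chr9:44981536-44981835 on the plus strand for Cd3d, and chr9:44980382-44980681 and chr9:45009562-45009861 on the minus strand for Cd3g and Cd3e. Capitals mark matches, on either strand, to any of 5 short motifs named after the sequences.
Cd3d: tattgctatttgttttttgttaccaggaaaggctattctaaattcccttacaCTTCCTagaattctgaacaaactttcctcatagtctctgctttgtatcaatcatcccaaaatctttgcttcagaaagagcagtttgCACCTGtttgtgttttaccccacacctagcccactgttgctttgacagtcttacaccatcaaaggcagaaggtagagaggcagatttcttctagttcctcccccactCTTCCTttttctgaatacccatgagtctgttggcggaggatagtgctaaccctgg
Cd3g: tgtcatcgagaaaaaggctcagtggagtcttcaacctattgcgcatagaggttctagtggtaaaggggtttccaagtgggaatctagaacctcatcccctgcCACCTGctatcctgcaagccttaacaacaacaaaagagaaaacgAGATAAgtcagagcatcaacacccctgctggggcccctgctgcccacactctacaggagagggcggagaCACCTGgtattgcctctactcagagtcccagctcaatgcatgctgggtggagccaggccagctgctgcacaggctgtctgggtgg
Cd3e: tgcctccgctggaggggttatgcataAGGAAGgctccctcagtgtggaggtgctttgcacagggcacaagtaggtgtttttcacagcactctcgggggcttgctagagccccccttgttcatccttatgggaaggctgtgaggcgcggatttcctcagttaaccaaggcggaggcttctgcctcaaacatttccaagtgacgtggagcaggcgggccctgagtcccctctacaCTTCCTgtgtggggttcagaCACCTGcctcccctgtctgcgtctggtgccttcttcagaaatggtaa
The E-box, searched as CAGGTG, was found in all 3 windows, 1 time in Cd3d and Cd3e and 2 times in Cd3g, and is present in 20.2% of the 32851 windows of this kind in RefSeq. The core bound by ETS factors, searched as AGGAAG and present in 35.4% of all windows, occurred 2 times in Cd3d and in Cd3e and was not in the Cd3g window. The letters bound by GATA factors, searched as AGATAA and present in 11.2% of windows, occurred in Cd3g alone of the 3. The core bound by RUNX factors, searched as TGTGGT (16.8% of windows), was in none of the 3 windows. A TATA box, searched as TATAAA (13.6% of windows), was in none of them either. No match overlapped another. A match is a description of the sequence, not a site shown to be bound.

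The CD3 chain genes were measured on dim probes. The Cd3g signal, an intensity in the deposited units, was 152 and 152 in WT, 126 and 119.6 in SSCTR, and 205 and 199 in POF, above background on all 6 arrays. Every POF array was therefore above every WT array, and every WT array above both SSCTR arrays. The Cd3d signal was 133 and 113 in WT, 99.0 and 111 in SSCTR, and 141 and 137 in POF. The order of the groups was the same as for Cd3g and no groups overlapped, but the lower WT array (113) stood next to the higher SSCTR array (111), and 1 of the 2 SSCTR arrays was at background. The brighter Cd3e probe read 105 and 109.6 in WT, 115 and 98.5 in SSCTR, and 132 and 115 in POF. SSCTR spanned both WT values, 1 array of each of these groups was at background, and the second Cd3e probe (96.0 to 119.6) was above background on 2 of 6 arrays.

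Cd79b, which with CD79a carries the signal of the B cell receptor, had its highest signal in WT. Its brighter probe read 196 and 144 in WT, 114 and 93.4 in SSCTR, and 108 and 111 in POF. Both WT arrays lay above all 4 others, SSCTR spanned POF, and 1 SSCTR array was at background. The second Cd79b probe read 126 and 121 in WT, 102 and 94.9 in SSCTR and 116 and 97.5 in POF, again with WT on top, and was at background on both SSCTR arrays and 1 POF array.

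Coro1a and Cd52 were the genes of the set whose brightest probes stood well clear of background on all 6 arrays. The brightest Coro1a probe read 497 and 564 in WT, 299 and 337 in SSCTR, and 523 and 672 in POF. WT and POF overlapped, and both SSCTR arrays lay below all others. Coro1a probes 2 and 3 placed SSCTR below the other groups too: 176 and 192 in WT against 121 and 153 in SSCTR and 179 and 184 in POF for probe 2, and 165 and 179, 138 and 131, and 188 and 176 for probe 3. Probe 4 (96.0 to 112) was at background on both SSCTR arrays and above it on the other 4. The brightest Cd52 probe read 569.7 and 546 in WT, 482 and 416 in SSCTR, and 773 and 746 in POF, with no overlap between any groups. The second Cd52 probe (91.3 to 115) was above background on the 2 POF arrays and on no other array.

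Thy1, like Cd79b, was highest in WT. Its brighter probe read 158 and 150.3 in WT, 114 and 108 in SSCTR, and 118 and 127 in POF, all above background. Both WT arrays lay above all others, and the lower POF array stood close to the higher SSCTR array, with no overlap. The second Thy1 probe (87.5 to 94.7) was at background on all 6 arrays. Ptprc was at background throughout: its 4 probes read 82.7 to 101.6 over the 6 arrays, and the lowest detection p of any of them was 0.143. No level of Ptprc can therefore be given for any group, and no difference between groups was detectable with these probes.

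**Figure D1:**
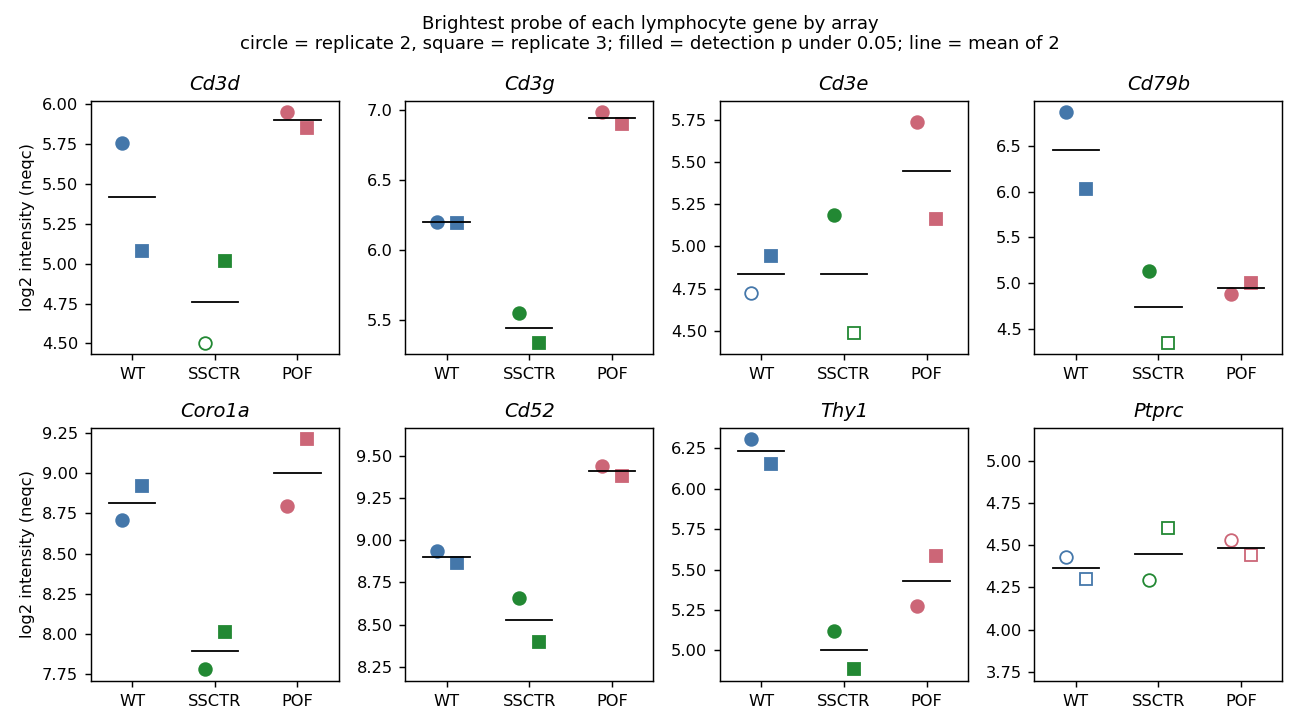
The log2 intensity (y axis, background-corrected and normalized, a separate range for each gene) of the brightest probe of 8 genes on the 6 arrays, by group (x axis), with open symbols for arrays at background and a line for the mean of 2 arrays. Cd3g and Cd52 were highest in POF and lowest in SSCTR, Cd79b and Thy1 were highest in WT, and Ptprc was at background on all arrays.

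**Figure D2:**
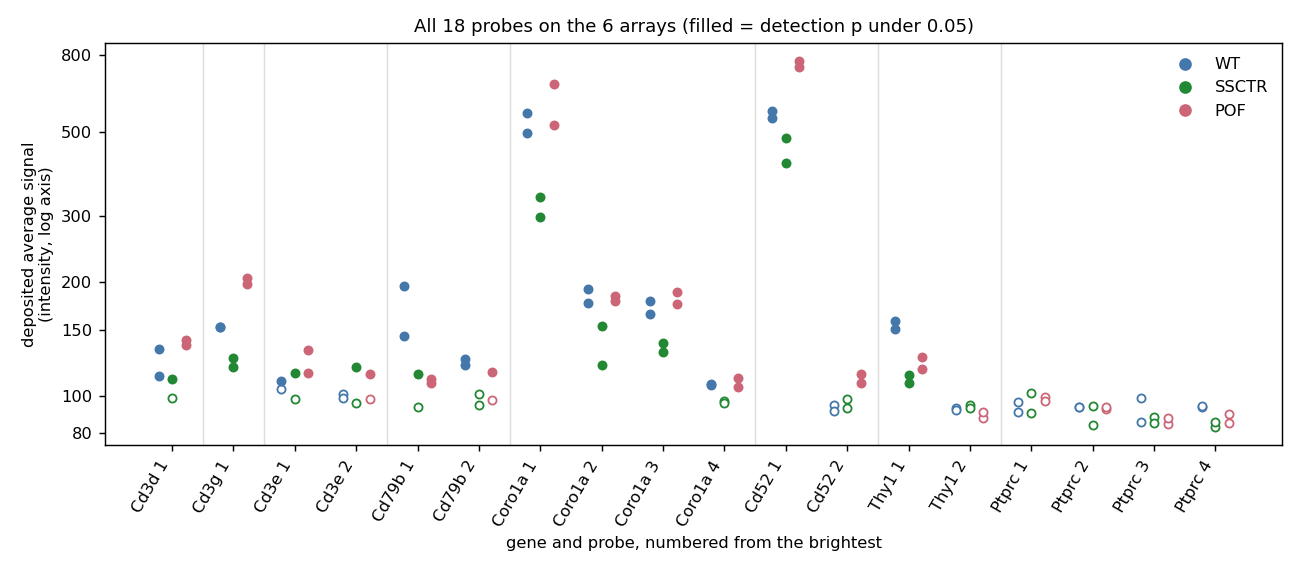
Deposited average signal (y axis, log scale) of all 18 probes (x axis, numbered within a gene from the brightest) on the 6 arrays, coloured by group, with open symbols at background. The first probe of Coro1a read 299 to 672 and that of Cd52 416 to 773, while the 4 Ptprc probes, at background on all arrays, lay between 82.7 and 101.6.

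POF was set against WT to ask what differs in failing ovaries. The T cell receptor gene Cd3g rose and the B cell receptor gene Cd79b and Thy1 fell. Cd3g rose 1.67-fold in POF, from 6.20 ± 0.0025 to 6.94 ± 0.06 on the log2 scale (SD, n = 2; adjusted p = 0.0234), while Cd79b fell 2.84-fold, from 6.45 ± 0.59 to 4.94 ± 0.08 (adjusted p = 0.0182). Thy1 fell 1.75-fold, from 6.23 ± 0.11 to 5.43 ± 0.22 (adjusted p = 0.0271). Of the 7 tested genes 1 was higher and 2 were lower. Among all 13872 features 11.9% passed the threshold, an adjusted p under 0.05, with 6.98% higher and 4.96% lower. The groups did not overlap at 6 of the 7 genes, 4 higher and 2 lower in POF; the same held for 54.9% of all features, 25.6% higher and 29.3% lower.

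The other 4 genes did not pass in POF against WT. The log2 change of Cd52 was 0.51 (95% confidence interval 0.11 to 0.90, adjusted p = 0.0968), that of Cd3d 0.48 (-0.11 to 1.07), that of Cd3e 0.61 (-0.01 to 1.24) and that of Coro1a 0.19 (-0.27 to 0.65). The median change of the 7 genes was 0.48, against -0.03 over all features. The second Cd79b probe had the same direction as the first, by -0.64 (adjusted p = 0.149 with each probe tested on its own). It was above background on 2 WT arrays, 1 POF array and no SSCTR array, so it could not pass the filter without WT. The filter thus favoured this direction, which lends no support to the first probe. The second Cd52 probe had a POF level at least 1.22 times that of WT, where it was at background (adjusted p = 0.0536). Since only the 2 POF arrays brought this Cd52 probe past the filter, its direction was set in advance and lends no support to the first. Coro1a probes 2 to 4 were at -0.04, 0.15 and 0.06, so none of its probes moved by more than 0.19.

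These calls rest on few arrays. Without 1 array, Cd3g had an adjusted p of 0.105 or 0.102 (WT replicate 2 or 3 left out) and 0.110 or 0.0887 (POF replicate 2 or 3), and Thy1 one of 0.140, 0.0822, 0.145 or 0.0604 in the same order; Cd79b was lost without WT replicate 2 (0.105) or either POF array (0.109 and 0.0950) and with no filter on dim probes (0.0717). Without background correction the same changes were smaller, at 0.41 for Cd3g, -0.62 for Cd79b and -0.34 for Thy1, and the change of Cd52 passed (0.45, adjusted p = 0.0153).

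SSCTR was set against POF to ask how the recipients' ovaries differ from failing ones. All 7 tested genes had lower values in SSCTR, and 4 fell: Cd3g, Cd3d, Coro1a and Cd52. Cd3g fell 2.82-fold, from 6.94 ± 0.06 to 5.45 ± 0.15 (SD, n = 2; adjusted p = 0.000744). Cd3d fell by at least 1.97-fold, since 1 of the 2 SSCTR arrays was at background (log2 change -1.14 ± 0.26 SE, adjusted p = 0.0229). Coro1a fell 2.15-fold (log2 change -1.11 ± 0.20 SE, adjusted p = 0.00882), and Cd52 fell 1.85-fold, from 9.41 ± 0.04 to 8.53 ± 0.18 (adjusted p = 0.0115). Over all features 12.6% passed, 7.25% lower in SSCTR and 5.33% higher. The median of the 7 genes was -0.88, against 0.03 over all features. In a whole ovary, fewer cells of a type and less RNA per cell cannot be told apart.

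Cd3e, Thy1 and Cd79b did not pass in this comparison. The change of Cd3e was -0.61 (95% confidence interval -1.24 to 0.01, adjusted p = 0.194), that of Thy1 -0.43 (-0.86 to 0.0028) and that of Cd79b -0.20 (-0.93 to 0.53, adjusted p = 0.738). At 5 of the 7 genes SSCTR lay below POF without overlap and at none above it; of all features 55.3% did not overlap, 26.6% lower and 28.8% higher. The probes of Coro1a agreed in direction, with changes of -1.11, -0.88, -0.89 and -0.46, of which probes 1 and 3 passed when each probe was tested on its own (adjusted p = 0.0106 and 0.0175). Probe 4, at background in SSCTR, gave a fall of at least 1.03-fold. The second Cd52 probe, also at background there, was at least 1.12-fold lower (adjusted p = 0.0716), again a direction set by the filter.

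The Cd3g call held without any 1 array (adjusted p up to 0.0117). Cd3d was lost without SSCTR replicate 2 (adjusted p = 0.121), POF replicate 2 (0.118) or POF replicate 3 (0.105) and with no filter (0.0723), Coro1a without SSCTR replicate 2 (0.0561) or POF replicate 3 (0.0712), and Cd52 without SSCTR replicate 3 (0.0802) or either POF array (0.0679 and 0.0614). Without background correction the fall of Cd3g was 0.72 and that of Cd3d 0.40 on the log2 scale, with adjusted p of 0.000369 and 0.0338.

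SSCTR was also set against WT, to ask how the recipients' ovaries differ from normal ones. Thy1, Cd79b and Coro1a fell. Thy1 fell 2.35-fold (log2 change -1.23 ± 0.19 SE, 2 arrays a group, adjusted p = 0.0120). Cd79b fell by at least 2.72-fold, with 1 of 2 SSCTR arrays at background (log2 change -1.71 ± 0.32 SE, adjusted p = 0.0268). Coro1a fell 1.89-fold, from 8.81 ± 0.15 to 7.90 ± 0.16 (SD, n = 2) on the log2 scale in limma's test, with an adjusted p of 0.0492, close to the threshold. Over all features 3.31% passed, 1.5% lower in SSCTR and 1.81% higher. At 6 of the 7 genes SSCTR lay below WT without overlap and at none above it; of all features 47.9% did not overlap, 25.3% lower and 22.6% higher.

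Cd3g lay just outside the threshold in SSCTR against WT, with a log2 change of -0.75 (95% confidence interval -1.13 to -0.37, adjusted p = 0.0508). It passed with no filter on dim probes (adjusted p = 0.0498), with the mean of the probes (0.0433), with a detection p under 0.01 asked of every array (0.0234) and with all 9 deposited columns, the computed replicate 1 included (0.000516), and did not in the other alternatives (0.0504 to 0.237). The changes of Cd3d (-0.66, interval -1.25 to -0.07), Cd52 (-0.38, -0.77 to 0.02) and Cd3e (0.0027, -0.62 to 0.63) did not pass either, and the interval of Cd3e leaves room for a change of either sign. The median of the 7 genes was -0.75, against -0.01 over all features. The second Cd79b probe, at background in SSCTR, was at least 1.54-fold lower (adjusted p = 0.0872). That probe could not pass the filter without WT, so this direction too was favoured by the filter and lends no support to the first. Coro1a probes 2 and 3 were at -0.92 and -0.74 (adjusted p = 0.122 and 0.0867).

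No call of this comparison held without each array in turn. Thy1 was lost without WT replicate 2 (adjusted p = 0.0958), WT replicate 3 (0.0599) or SSCTR replicate 3 (0.0897). Cd79b was lost without SSCTR replicate 3 (0.140), WT replicate 2 (0.149) or either POF array (0.0614 for replicate 2, 0.0609 for replicate 3) and with no filter (0.0964). Coro1a was lost without any 1 of the 6 arrays, with an adjusted p of 0.149 and 0.212 (WT replicates 2 and 3), 0.198 and 0.130 (SSCTR), and 0.0552 and 0.0551 (POF), with no filter (0.0893) and with each probe tested on its own (0.0597). Without background correction the fall of Thy1 was 0.47 and that of Cd79b 0.70 on the log2 scale.

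**Figure D3:**
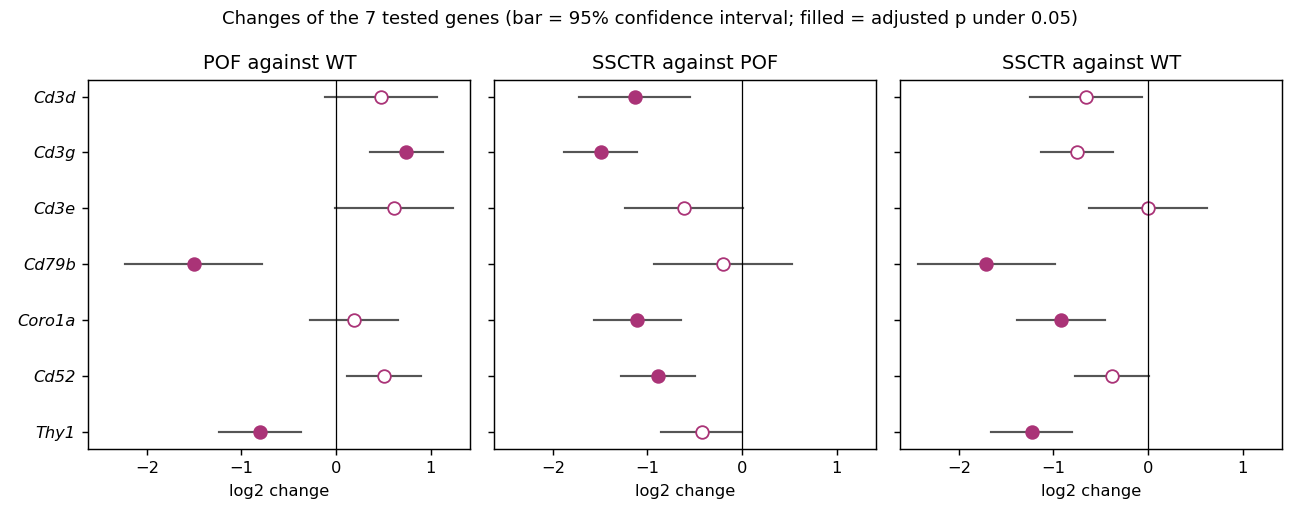
Log2 change (x axis) of the 7 tested genes (y axis) in the 3 comparisons, with 95% confidence intervals as bars and filled points for an adjusted p under 0.05. Cd79b and Thy1 passed below 0 in POF against WT and in SSCTR against WT; Cd3d, Cd3g, Coro1a and Cd52 passed below 0 in SSCTR against POF.

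Each group takes part in 2 of the 3 comparisons, so these are not independent of each other. Side by side, Cd3g was at 0.74, -1.49 and -0.75 in POF against WT, SSCTR against POF and SSCTR against WT, and Cd79b at -1.51, -0.20 and -1.71. Cd3g thus had its highest level in POF and its lowest in SSCTR, whereas Cd79b was below WT in both of the other groups, which did not pass against each other. Thy1 (-0.80, -0.43 and -1.23) had the order of Cd79b, and Cd52 (0.51, -0.88 and -0.38) that of Cd3g.

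Of 31 other T cell genes 27 had a probe and 10 were measured, while the coreceptor genes Cd4 and Cd8a were above background on none of the 6 arrays. In POF against WT 3 of the 10 were higher and 0 lower, with a median of 0.30: Ptpn22, a phosphatase that restrains T cell receptor signalling, rose 2.33-fold (adjusted p = 0.00254), the interleukin 7 receptor gene Il7r at least 1.98-fold (above background on 1 of 2 WT arrays) and the costimulatory receptor gene Cd28 at least 1.23-fold (at background in WT). Outside POF, Cd28 was above background on 1 SSCTR array only, so it could not pass the filter without POF. The filter thus favoured its direction, which lends no support to the rise of Cd3g. In SSCTR against POF Ptpn22 alone passed, at least 2.29-fold lower, and the median was -0.19. In SSCTR against WT limma called 0 of 10 (2 at an unadjusted p under 0.05), with a median of -0.08. Il7r was lost without either WT array (adjusted p = 0.0726 for replicate 2, 0.137 for replicate 3) or either POF array (0.0516 and 0.158), and Cd28 without any of these 4 arrays (0.133, 0.178, 0.129 and 0.185) or with the replicate number as a block (0.0593); Ptpn22 was kept wherever it was tested, and was the only higher gene of the list in POF against WT without background correction and with no filter on dim probes, where 1 and 0 genes were lower.

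Of 24 other B cell genes 21 had a probe and 12 were measured, with Pax5, the factor that fixes B cell identity, above background on 0 of 6 arrays. Fcmr, a receptor for the antibody IgM, was above background in WT alone. It was at least 2.83-fold lower in POF (adjusted p = 0.00129) and at least 2.59-fold lower in SSCTR (adjusted p = 0.00355). Since only the 2 WT arrays brought it past the filter, this direction was set in advance and lends no support to the pattern of Cd79b. Vpreb3, which binds antibody heavy chains in B cell precursors, went the other way, 2.35-fold higher in POF than in WT (adjusted p = 0.00344) and 1.69-fold lower in SSCTR than in POF (adjusted p = 0.0270). Cd72, an inhibitory B cell receptor, was at least 2.23-fold lower in SSCTR than in POF (adjusted p = 0.0129). The list thus had 1 gene higher and 1 lower in POF against WT, 0 and 2 in SSCTR against POF, and 0 and 1 in SSCTR against WT, with medians of -0.15, -0.36 and -0.44. In SSCTR against POF, Vpreb3 was lost without SSCTR replicate 3 (0.155) or either POF array (0.119 and 0.101), and Cd72 without SSCTR replicate 2 (0.0607), POF replicate 2 (0.0763) or POF replicate 3 (0.0806).

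Genes of natural killer and cytotoxic cells (7 of 15 measured) and of signalling partners of the receptors (7 of 14 measured) had 0 limma calls in every comparison. At an unadjusted p under 0.05 there were 1, 1 and 4 of the former and 1, 1 and 0 of the latter in POF against WT, SSCTR against POF and SSCTR against WT. Prf1, the pore-forming protein of cytotoxic cells and the brightest of the first list, was at 0.07, 0.32 and 0.39. Csk, the kinase that holds Lck inactive and the brightest of the second, was at -0.35, -0.02 and -0.37. The medians were -0.25, -0.22 and -0.55 for the cytotoxic list and 0.20, -0.21 and -0.25 for the signalling list.

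Genes shared by leukocytes (13 of 20 measured) changed in more members. In SSCTR against POF 7 of 13 were lower and 0 higher, with a median of -0.84: Laptm5, a lysosomal membrane protein, fell 2.82-fold (adjusted p = 0.000862), and Arhgdib 2.49-fold (adjusted p = 0.00331). Lcp1, an actin-bundling protein (2.49-fold, adjusted p = 0.00616), and Was, an actin-nucleation factor (2.44-fold, adjusted p = 0.0151), were lower too. In POF against WT 3 were higher, Laptm5 (2.06-fold), Lcp1 (2.01-fold) and the phosphatase gene Ptpn6 (1.63-fold), 0 were lower, and the median was 0.13. In SSCTR against WT Arhgdib alone passed (2.27-fold lower, adjusted p = 0.0168), with a median of -0.45. The summed normalized intensity of the 13 genes was 2020.4 to 2102 on the WT arrays, 1402 to 1489.9 on the SSCTR arrays and 3346 to 3393 on the POF arrays. With no filter on dim probes 4 genes were lower in SSCTR against POF and 1 was higher in POF against WT. In SSCTR against POF, Lcp1 was lost without POF replicate 2 (0.0530) and Was without SSCTR replicate 2 (0.0640), SSCTR replicate 3 (0.0678) or POF replicate 3 (0.0720). In POF against WT, Ptpn6 was lost without any 1 array (0.0612 to 0.226) and with the replicate number as a block (0.0517), and Lcp1 without WT replicate 2 (0.119), WT replicate 3 (0.0729) or POF replicate 2 (0.134). In SSCTR against WT, Arhgdib was lost without WT replicate 2 (0.101), WT replicate 3 (0.0968) or SSCTR replicate 2 (0.108).

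Markers of other cells that carry some of these genes moved too. Of 17 measured macrophage genes (of 20) 6 were higher and 0 lower in POF against WT (median 0.41), 8 were lower and 0 higher in SSCTR against POF (median -0.69), and 1 was higher and 1 lower in SSCTR against WT (median -0.12). Their summed intensity was 8264 to 9429 in WT, 8241 to 8941 in SSCTR and 17561 to 21463 in POF. Most of it in all 3 groups came from the lysozyme genes Lyz1 and Lyz2, whose log2 means in POF were 12.66 and 12.81. The macrophage markers Cd163 and Itgam were at background on all 6 arrays. Fcer1g, a signalling chain of antibody receptors, followed the group order of Coro1a, with log2 means of 8.05 in WT, 6.76 in SSCTR and 10.05 in POF. It passed in all 3 comparisons, with a fall of 9.77-fold in SSCTR against POF (adjusted p = 3.80e-05) and of 2.44-fold in SSCTR against WT (adjusted p = 0.0140). The latter was lost without WT replicate 3 (0.0933) or either SSCTR array (0.0775 for replicate 2, 0.0866 for replicate 3). Gpnmb, a membrane glycoprotein of activated macrophages, was 8.84-fold higher in POF than in WT and 4.85-fold lower in SSCTR than in POF (adjusted p = 2.64e-05 and 9.26e-05), and was the 1 macrophage gene higher in SSCTR than in WT (1.82-fold, adjusted p = 0.0353). That call was lost without any 1 array (0.0503 to 0.167), with the replicate number as a block (0.0594) and with the mean of the probes (0.378). Of 10 measured epithelial genes (of 11) 6 were higher in POF than in WT and 0 lower, and 7 were lower and 1 higher in SSCTR than in POF, with sums of 789 to 814 in WT, 688 to 725 in SSCTR and 4538 to 4542 in POF. Among them, Ovgp1 changed by 6.56 in POF against WT and by -6.66 in SSCTR against POF on the log2 scale, and Dynlrb2 by 3.52 and -3.19. Each was above background on at most 3 of the 6 arrays, so neither could pass the filter without POF. Their direction was thus favoured by the filter, although both are in the counts above. Their changes are taken against values mostly at background and are not given as limits. Of 9 stromal genes 0 were higher and 2 lower in POF against WT, 1 was higher and 0 lower in SSCTR against POF, and limma called 0 in SSCTR against WT (2 at an unadjusted p under 0.05), with sums of 3775 to 4357 in WT, 3143 to 3372 in SSCTR and 3992 to 5273 in POF. The part of these cells in the values of Coro1a, Cd52 and Thy1 was not tested.

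**Figure D4:**
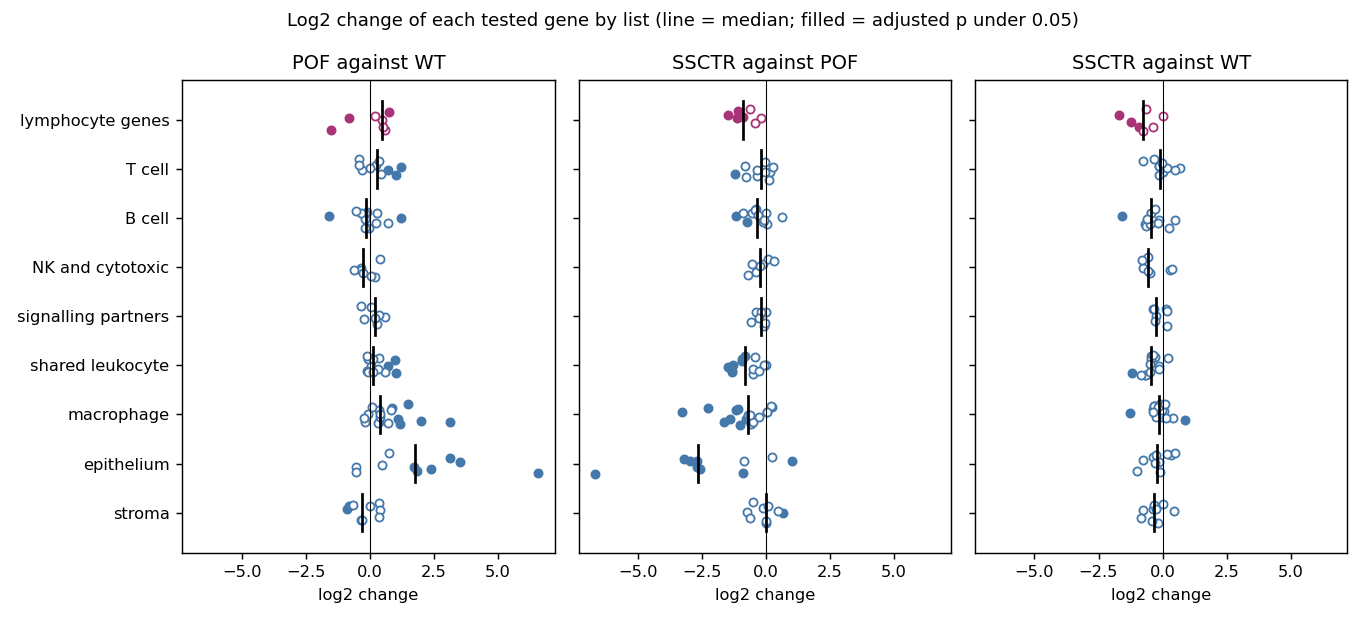
Log2 change (x axis) of each tested gene of the set and of 8 other lists (y axis) in the 3 comparisons, with a line at each list's median and filled points for an adjusted p under 0.05. In SSCTR against POF the shared leukocyte and macrophage lists have medians of -0.84 and -0.69, and the T cell, B cell and cytotoxic lists -0.19, -0.36 and -0.22.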

How the data were processed

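Signals were read from 9 deposited columns of intensity and detection p-value for 45281 probes; GenomeStudio is the tool named in the submitters' processing notes, with no version. The deposited intensities of replicates 2 and 3 already share 1 distribution (sorted values within 0.541%). In each group the replicate 1 intensity is the mean of replicates 2 and 3 times 1 of a few factors (6 in WT, 17 in SSCTR, 9 in POF), and its deposited detection p-values are theirs times the same factor (tolerance 0.001), so 6 arrays were used. The deposited normalized intensities match a quantile normalization of all 9 columns (99.99% within 1e-04) and served as an alternative.

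The signals went through neqc (limma 3.58.1, R 4.3.3: normexp background from the detection p-values, offset of 16, quantile normalization, log2), so changes of dim probes are understated. Probes with a detection p under 0.05 on at least 2 arrays were kept, 19394 in all, and the brightest kept probe stands for a gene, giving 13872 features (11053 named genes). A single limma model with empirical Bayes took all 3 groups, two-sided, with Benjamini-Hochberg adjustment over all features; the steps were tested on simulated data. Where a gene was at background on 1 or 2 arrays of the group with less signal, "at least" marks a limit: the brighter mean against the higher of the probe's value and the lowest detected value on each dim array. Such a limit covers background only and leaves out the spread between arrays. Summed intensities of a list add 2 to the power of its genes' log2 values. The lists name at most 4 genes past the threshold for each comparison by smallest adjusted p, or else the brightest; Cd4, Cd8a, Cd8b1, Cd163, Itgam, Amh and Pax5 were chosen after their values were seen. The members and lists were chosen with earlier results of these data known. Same-numbered replicates did not deviate together (r = -0.0171, -0.0628 and -0.00259), so samples were treated as unpaired. Slide and scan date were not analysed here.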

Additional observations from a re-analysis of the deposited data

How the results depend on the processing

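Results were compared over 16 alternatives. In those that kept all 6 arrays, 0 genes of the set passed the threshold as higher in SSCTR in either of its comparisons. The other counts moved under some of them. In POF against WT the count of higher genes was 1 and became 2 without background correction, with an offset of 50, with the authors' normalized values, with the mean of the probes or with an intensity trend in the prior, where Cd52 passed, and 4 with all 9 columns, which count the computed replicate 1 as an array. The count of lower genes there was 2 and became 1 with no filter and 0 when a detection p under 0.01 was asked of every array, where neither gene is tested. In SSCTR against WT 3 genes were lower, and 6 with all 9 columns, where Cd3d, Cd3g and Cd52 passed as well. That count was 4 with the mean of the probes. It was 2 with no filter, with a detection p under 0.01 on every array, or with each probe tested on its own. In SSCTR against POF 4 genes were lower, 3 with no filter or with that stricter detection p, and 6 with all 9 columns. Without 1 array the counts were 0 to 1 higher and 0 to 2 lower in POF against WT, 1 to 4 lower in SSCTR against POF and 0 to 2 lower in SSCTR against WT. With the replicate number as a block the counts were the same (1 and 2, 0 and 4, 0 and 3), and no pairing was found.

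Signs turned for changes that passed neither there nor with the settings of the report. Cd3e in SSCTR against WT was -0.0069 without background correction, -0.0074 with the authors' values and -0.35 to 0.35 without 1 array. Without 1 array Coro1a in POF against WT was -0.020 to 0.397, Cd79b in SSCTR against POF -0.60 to 0.19, Csk in SSCTR against POF -0.094 to 0.052 and Prf1 in POF against WT -0.063 to 0.20. The cause was not tested. Features past the threshold numbered 1656, 1745 and 459 in the 3 comparisons (POF against WT, SSCTR against POF, SSCTR against WT), 4931, 4969 and 3104 with all 9 columns, and 607 to 1548, 735 to 1573 and 121 to 343 without 1 array. In SSCTR against WT they were also 857 without background correction, 856 with the authors' values, 767 with an offset of 50 and 817 with the trend. Counts of calls in the other lists moved by over 1.5 times in 88 cases and did not in 452 under alternatives that keep all 6 arrays, and in 59 and 265 cases without 1 array. Signal over background limits the Ptprc, Cd3e, Cd3d and Cd79b values, and those of Thy1 in SSCTR.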

Other observations

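Cd8b1, the beta chain of the T cell coreceptor CD8, was chosen after its values were seen. It had 3 probes, of which 2 passed the filter, and only the brightest is described here. That probe was above background on all 6 arrays with group means of 11.32 in WT, 11.16 in SSCTR and 10.91 in POF on the log2 scale. Cd8b1 passed in none of the 3 comparisons with the settings of the report (POF against WT -0.41, adjusted p = 0.148). Both probes of Cd8a, which encodes the chain that pairs with it, were above background on none of the 6 arrays. The summed T cell list is carried by this probe: the sums were 2771 to 3116 in WT, 2632 to 2685 in SSCTR and 2350.4 to 2382 in POF, lowest in the group where Cd3g was highest.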
